A study of Mus musculus with 18 samples.

Results

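The genes described are the nuclear-encoded genes of oxidative phosphorylation in mouse tibialis anterior muscle. They were chosen by name: every protein-coding gene whose symbol starts with Nduf, Uqcr, Atp5 or Cox4 to Cox8, together with Sdha, Sdhb, Sdhc, Sdhd, Cyc1 and Cycs, leaving out the genes of the mitochondrial genome. The rule found 96 gene models under 95 names among 29433 genes with a count. Enough reads for a test were found for 94 of them, among 16089 genes tested in all. By function they comprised 36 subunits of complex I, 4 of complex II, 9 of complex III, cytochrome c itself, 19 of complex IV and 16 of complex V. The rest were 8 assembly factors of complex I (the Ndufaf genes) and 3 genes that share the names without being listed as subunits here: Cox7a2l, Atp5s and a second, longer gene model named Atp5o. In complex IV, Cox8c had no count in any library and Cox7b2 had 2 fragments in all. A count of 0 allowed a level of up to 0.133 CPM (counts scaled to a common library total) in the shallowest library.

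Oxidative phosphorylation takes place at the inner membrane of the mitochondrion. Complexes I and II pass electrons to coenzyme Q, complex III passes them on to cytochrome c, and complex IV passes them to oxygen. Complexes I, III and IV pump protons, and complex V, the ATP synthase, uses the proton gradient to make ATP. Most subunits are encoded in the nucleus and imported, whereas a small set is encoded in mitochondrial DNA, so that both genomes supply the same complexes. In limb muscle the amount of these transcripts is known to follow the oxidative capacity of the fibres and the activity of the nuclear regulators PGC-1 alpha, ERR alpha, NRF1 and GABP.

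RNA was sequenced from 18 libraries in 9 groups of 2, taken when tumour-bearing mice reached endpoint. In the LLC experiment, C57BL/6 mice carried a lung carcinoma line injected into muscle, and controls received PBS. In the C26 experiment, CD2F1 mice carried a colon carcinoma line injected under the skin, and controls received PBS. KPC (50000 cells) and KPCML1 (1000 cells) are tumour lines placed orthotopically in C57BL/6 mice, and both were compared with the same 2 libraries from mice that received only Matrigel, so their effects are not independent of each other. KPP is a genetic tumour model on C57BL/6 that is induced by tamoxifen, compared with KPP controls. The labels do not give age, or say whether the KPP controls received tamoxifen. Libraries of one group are described as biological replicates, with no animal named, so the p-values measure the spread between these libraries.

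Depth was 22546541 to 36673780 fragments per library, of which the described genes took 2.07 to 3.83%. Fast myofibre markers fitted the labelled tissue, with a summed level of 74062 to 185984 CPM, whereas slow myofibre markers summed to 25.7 to 180 CPM, and 3 of 6 of them rose with KPC. The slow sum was 180 and 27.0 CPM in the KPC tumour libraries and 25.7 and 64.0 CPM in Matrigel controls, so these groups overlapped. Other cell types moved with the groups. For scale, 6.24, 4.38, 13.7, 9.8 and 19.3% of all genes tested fell with LLC, KPCML1, KPC, C26 and KPP. In the same order, 7.39, 4.15, 15.3, 11.5 and 17.4% rose. All 7 erythroid markers rose with KPC and KPCML1 and 6 of 7 with LLC, and 2 to 5 of 6 neutrophil markers rose in each comparison. Of 6 adipocyte markers, 4 fell with C26 and 5 with KPP. Of 5 endothelial markers, 4 fell with KPP. Of 6 markers of fibro-adipogenic progenitors, 3 fell with LLC, 2 with KPCML1, 4 with KPC, 2 with C26 and 4 with KPP, and their summed level went from 493 to 748 CPM in KPP controls to 170 to 272 CPM with tumour. Of 7 macrophage markers, 3 rose with KPCML1, 1 with KPC and 1 with KPP. Of 11 fast myofibre markers, 1 fell with LLC, 4 with C26 and 3 with KPP, and the second C26 tumour library held the lowest fast myofibre sum. The part of these shifts in the results below was not tested. In bulk tissue, fewer cells of a type and less RNA per cell cannot be told apart.

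In the 8 control libraries the described genes were among the abundant transcripts of the muscle. Levels of different genes were compared in TPM (the same scale after division by transcript length). The highest was Atp5b, the catalytic beta subunit of the ATP synthase, with 2756 ± 408 TPM (SD, n = 8) and a range from 2258 to 3624 TPM. Cox8b, a muscle form of a small complex IV subunit, followed with 2516 ± 254 TPM, and Atp5e, the epsilon subunit of the ATP synthase, with 2229 ± 297 TPM. These neighbours in the order overlapped in their ranges. The median level of a gene was 1106 TPM in complex V, 994 in complex IV, 891 in complex III, 455 in complex I and 306 in complex II. Cytochrome c (Cycs) stood at 126 TPM. The complex I assembly factors were lower, with a median of 30.2 TPM and a highest value of 42.6 TPM for Ndufaf6.

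Each tumour was compared with its own control by edgeR's quasi-likelihood test, with p-values adjusted by Benjamini and Hochberg over all 16089 genes and a call at an adjusted p under 0.05. With LLC, 65 of the 94 genes fell and 0 rose, where 6.24% of all genes tested fell and 7.39% rose. With C26, 53 fell against 9.8% of all genes, and 1, Cox8a, rose against 11.5% of all genes. With KPCML1, 11 fell against 4.38% of all genes and 0 rose against 4.15% (8.53% in either direction). The 13 that fell with KPC (13.8%) and the 19 that fell with KPP (20.2%) were shares close to those of all genes, 13.7% and 19.3%, and 5 rose with KPP where 17.4% of all genes rose. None of the 94 rose with KPC, where 15.3% of all genes rose.

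The median log2 fold change, tumour minus control, was -0.86 with LLC, -0.78 with C26, -0.44 with KPCML1, -0.36 with KPC and -0.14 with KPP. The median of all genes tested lay between -0.04 and 0.04 in these comparisons. Both tumour libraries lay below both control libraries for 89 of 94 genes with LLC, 82 with C26, 63 with KPCML1 and 57 with KPC, where 32%, 31.5%, 29.2% and 34% of all genes did so. With KPP that held for 21 genes, against 33.9% of all genes. The KPP libraries of one group differed among themselves: the summed level of the described genes was 28058 and 39440 CPM in the 2 controls and 34280 and 26920 CPM in the 2 tumour libraries, so that the groups overlapped. They did not overlap in summed TPM with mitochondrially encoded transcripts left out. There the controls stood at 86147 and 98908 TPM and the tumour libraries at 81422 and 68030 TPM.

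**Figure D1:**
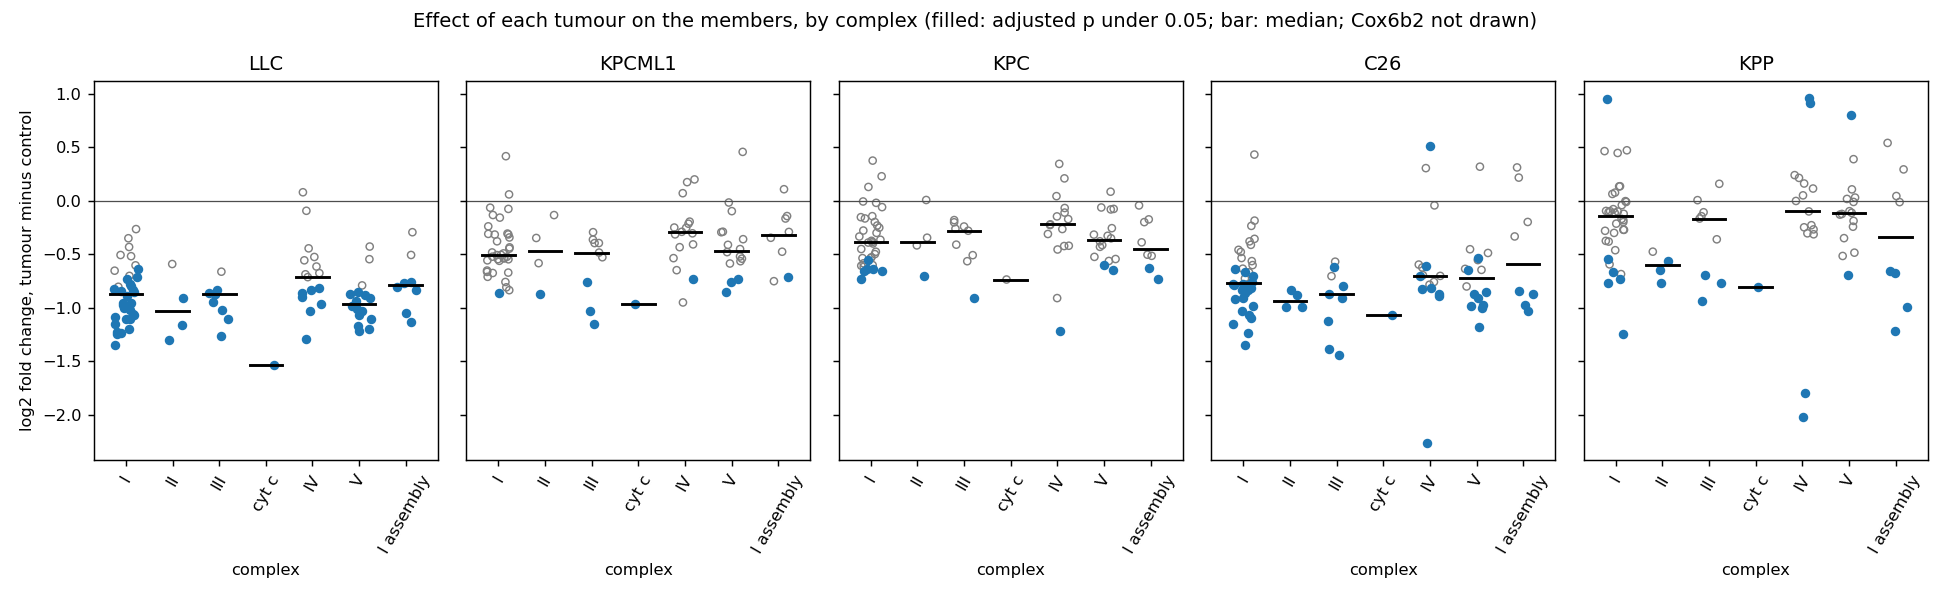
Log2 fold change (y axis, tumour minus control) of each tested gene in the 5 comparisons (panels), by complex (x axis). Filled points passed the test at an adjusted p under 0.05, bars are medians over all tested members of the class, and the low-level gene Cox6b2 (0.0499 to 0.663 CPM) is not drawn. Nearly all points lie below 0 with LLC and C26, while the medians of complexes I, III, IV and V lie near 0 with KPP, where 4 of the 5 increases are drawn; the other, Cox7a2l, belongs to none of these classes.

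The number of calls depended on single libraries. Leaving out 1 LLC library in turn gave 5 (without the second tumour library), 6 (without the first control), 26 (without the first tumour library) or 44 calls. For C26 the count was 11 without the second tumour library, 18 without the second control, 26 without the first control and 41 without the first tumour library. For KPCML1 it was 0 without the second Matrigel control or the second tumour library, 2 without the first tumour library and 5 without the first control. For KPC it was 1 without the second Matrigel control, 3 without either tumour library and 15 without the first control. For KPP, 5 fell and 8 rose without either the second control or the second tumour library, and 20 or 21 fell without the others. In each of these fits the library left alone was assumed to vary like the other groups.

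Complex I takes electrons from NADH. With LLC 27 of its 36 genes fell and with C26 21 fell, with medians of -0.87 and -0.77. With KPC 6 fell, with KPP 5 and with KPCML1 1, which were near or below the shares of all genes. Those shares, to be set beside the falls of each complex below too, were 6.24% with LLC and 9.8% with C26. They were 13.7% with KPC, 19.3% with KPP and 4.38% with KPCML1. Its 7 catalytic core genes and its 29 accessory genes had similar medians: -0.95 and -0.85 with LLC, -0.79 and -0.76 with C26, and -0.51 and -0.51 with KPCML1. Ndufc1 (an accessory subunit), Ndufs8 (an iron-sulphur core subunit) and Ndufv3 (an accessory subunit of the NADH-binding module) fell in 4 of the 5 comparisons, missing the threshold with KPCML1. In the authors' deposited DESeq2 tables none of them passed with KPP (adjusted p = 0.12 to 0.25), and only Ndufs8 passed with KPC (0.048). With single KPP libraries left out, effects ran from -1.09 to -0.43 for Ndufc1, -1.08 to -0.33 for Ndufs8 and -0.77 to -0.25 for Ndufv3. The KPC calls of Ndufc1 and Ndufv3 were lost with each library of that comparison left out. The largest fall with LLC was that of Ndufb10, a subunit of the membrane arm, from 411 and 328 to 155 and 135 CPM (-1.35 ± 0.24, adjusted p = 0.0026), and it kept its call with each LLC library left out. Ndufa7, an accessory subunit, passed in the other direction with KPP.

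Complex II, succinate dehydrogenase, is the complex encoded wholly in the nucleus. All 4 of its genes fell with C26, 3 with LLC, 3 with KPP, and 1, Sdhd, with KPC and KPCML1. With KPP its median was -0.61, against -0.15 for complex I, -0.17 for complex III, -0.10 for complex IV and -0.12 for complex V. Sdha, the flavoprotein that oxidises succinate, was at 749 and 1023 CPM in KPP controls and at 606 and 596 CPM with tumour (-0.56 ± 0.19, adjusted p = 0.036). Sdhc, a membrane anchor, went from 275 and 377 to 223 and 160 CPM there (-0.77 ± 0.22, adjusted p = 0.014). Both tumour libraries were below both controls for these genes. With single KPP libraries left out, the effect ran from -0.77 to -0.30 for Sdha and from -1.03 to -0.48 for Sdhc. In the authors' deposited DESeq2 table for KPP no complex II gene passed (adjusted p = 0.11 to 0.37). Sdhb, the iron-sulphur subunit, was at 464 and 722 CPM in controls and 519 and 334 CPM with KPP, where the groups overlapped (adjusted p = 0.15).

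In complex III only some of the genes fell in the KPP comparison. Cyc1, which carries the haem that passes electrons to cytochrome c, and the core proteins Uqcrc1 and Uqcrc2 fell with KPP (-0.94, -0.70 and -0.77), and the same 3 genes were the complex III calls with KPCML1 (-1.15, -0.76 and -1.03). The other 6 genes, among them the iron-sulphur protein Uqcrfs1 and the small subunits Uqcr10, Uqcrb and Uqcrq, ran from -0.36 to 0.16 with KPP and did not pass. Whether these 2 sets of genes differ was not tested. The calls of Uqcrc1 and Uqcrc2 with KPP and KPCML1 did not hold with every library left out. With KPP their effects then ran from -0.99 to -0.38 and from -0.95 to -0.53. In the authors' deposited DESeq2 table for KPP, Cyc1 and Uqcrc2 passed and Uqcrc1 did not (adjusted p = 0.11). With LLC 8 of 9 fell and with C26 7 of 9, where Uqcrc1 had the largest fall, from 1087 and 997 to 412 and 354 CPM (-1.44 ± 0.21, adjusted p = 5.2e-04).

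Cycs, the carrier between complexes III and IV, fell in 4 comparisons. It went from 459 and 351 to 158 and 122 CPM with LLC, a log2 fold change of -1.53 ± 0.28 (adjusted p = 0.0035), the lowest of all described genes in that comparison. The values were 237 and 341 CPM in Matrigel controls, 144 and 151 CPM with KPCML1 and 168 and 179 CPM with KPC. The fall passed with KPCML1 (-0.97 ± 0.28, adjusted p = 0.046) and not with KPC (-0.74 ± 0.28, adjusted p = 0.060). In every comparison both tumour libraries lay below both controls. With single libraries left out, the effect ran from -1.73 to -1.34 with LLC and from -1.27 to -0.88 with C26. It ran from -1.23 to -0.70 with KPCML1 and from -1.16 to -0.39 with KPP. None of these calls held with every library left out. In the authors' deposited DESeq2 table for KPP Cycs did not pass (adjusted p = 0.21), whereas it passed in theirs for LLC, C26 and KPC.

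Complex IV, cytochrome c oxidase, was the most uneven class. With LLC 7 of 17 tested genes fell and with C26 7, among them Cox4i1, Cox5a and Cox5b, the ubiquitous subunits near the catalytic core (-0.81, -0.97 and -0.90 with LLC). With KPC 1 fell and with KPCML1 1, and with KPP 2 fell and 2 rose. All 3 genes with different effects among the 5 tumours by a joint test belonged to this complex as grouped here: Ndufa4l2 (adjusted p = 0.026), Cox8a (0.030) and Cox6a2 (0.035), where 8.32% of all genes passed. DESeq2 called 25 members in the same joint test.

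Complex V fell in 13 of 16 genes with LLC and in 9 with C26. The F1 head, which makes ATP, and the membrane part with the stalks differed in their medians, -0.88 and -1.03 with LLC, -0.56 and -0.86 with C26, and -0.29 and -0.52 with KPCML1, but the difference was not tested. Among F1 genes Atp5b was at 3756 and 3120 CPM in LLC controls and 2342 and 2365 CPM with tumour, and narrowly missed the threshold (-0.55 ± 0.17, adjusted p = 0.051). Atp5g3, one of 3 genes for the same c subunit of the rotor ring, fell in 4 comparisons and with LLC went from 789 and 645 to 305 and 313 CPM (-1.21 ± 0.21, adjusted p = 0.0024). Atp5j, a stalk subunit called coupling factor 6, fell in all 5.

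The c ring draws its subunit from Atp5g1, Atp5g2 and Atp5g3, whose mature proteins are the same. Atp5g2 gave 1.38 to 2.46% of their summed TPM in the 8 controls. Its share was 4.84 ± 0.961% with C26 (SD, n = 2), 4.26 ± 0.340% with KPCML1, 3.48 ± 0.450% with KPP, 2.94 ± 0.152% with KPC and 2.44 ± 0.230% with LLC. Every tumour library of C26, KPCML1, KPC and KPP lay above all 8 controls in this share, while the LLC tumour libraries lay on both sides of the highest control. In counts, Atp5g2 rose with KPP, from 23.3 and 31.8 to 56.8 and 39.3 CPM (0.80 ± 0.22, adjusted p = 0.011). The call did not hold with every KPP library left out, where the effect ran from 0.52 to 1.12. In the authors' deposited DESeq2 table for KPP it did not pass (adjusted p = 0.074).

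For Atp5c1, the gamma subunit that turns inside the F1 head, the deposited transcript values separate forms with and without a 37-base exon (chr2:10056770-10056806, minus strand, build mm10, exon 9 of 10 of Atp5c1-203). The form without it made up 83.6 to 89.4% of the gene's TPM in all 18 libraries. The 3-exon form of Ndufv3 made up 98.7 to 99.4%.

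The 8 Ndufaf genes, whose proteins help to build complex I and are not part of it, were compared with the 83 tested subunits of complexes I to V and cytochrome c. With LLC 6 of 8 assembly factors and 59 of 83 subunits fell, with C26 4 and 49, with KPC 2 and 11, with KPCML1 1 and 10, and with KPP 4 and 15. Of all genes tested, 6.24, 9.8, 13.7, 4.38 and 19.3% fell in these comparisons. The shares of subunits with KPC and KPP were thus close to those of all genes. The medians of the assembly factors were -0.79, -0.59, -0.45, -0.32 and -0.34 in that order, beside -0.88, -0.78, -0.35, -0.45 and -0.17 for the subunits. Within the family the genes differed. Ndufaf1, a factor of the membrane arm, Ndufaf5 and Ndufaf7, enzymes that modify complex I subunits, and Ndufaf6 fell in 3 to 5 comparisons each, whereas Ndufaf2 and Ndufaf8 fell in none. Ndufaf5 had the largest fall of the family with KPP, from 24.9 and 37.6 to 15.9 and 11.1 CPM (-1.21 ± 0.27, adjusted p = 0.0035), and kept its call with each KPP library left out. Of 53 further assembly factors of complexes I to V, 19 fell with LLC, 17 with C26, 16 with KPC, 14 with KPP and 11 with KPCML1, beside the same shares of all genes. Of the 53, 1 rose with C26 and 4 with KPP, where 11.5% and 17.4% of all genes rose.

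Cyc1, Sdhd, Ndufs1, Atp5j and Ndufaf7 fell in all 5 comparisons, which makes 5 genes of 94, where 1.55% of all genes tested did so. In the authors' deposited DESeq2 tables, Cyc1 passed with LLC, KPC, C26 and KPP. The other genes named did not pass there with KPC (adjusted p = 0.064 to 0.18). Sdhd, Atp5j and Ndufaf7 did not pass there with KPP either (0.11 to 0.29). With single KPP libraries left out, the edgeR effect ran from -0.95 to -0.36 for Atp5j and from -0.87 to -0.40 for Ndufaf7. Without single KPCML1 or Matrigel libraries, it ran from -1.01 to -0.75 for Ndufs1, -1.06 to -0.65 for Atp5j and -0.81 to -0.62 for Ndufaf7. These KPCML1 calls were lost with each such library left out. Another 8 fell in 4 comparisons, 9 in 3, 25 in 2, 27 in 1 and 20 in none. Of the 11 genes that fell with KPCML1, all fell with LLC and with C26, and all 19 that fell with KPP fell with C26. Read the other way, the 19 were 35.8% of the 53 falls with C26, and the 11 were 16.9% of the falls with LLC and 20.8% of those with C26. LLC and C26 had 44 falls in common, which is 67.7% of the LLC list and 83.0% of the C26 list, where 3.8% of all genes fell in both.

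Cyc1 (chr15:76343523-76346260, plus strand, mm10) had 657 and 600 CPM in LLC controls and 254 and 269 CPM with tumour. In the orthotopic experiment it had 431 and 607 CPM with Matrigel, 231 and 236 CPM with KPCML1 and 259 and 292 CPM with KPC. C26 controls had 578 and 569 CPM and tumours 245 and 194 CPM, and KPP controls had 452 and 523 CPM and tumours 273 and 236 CPM. Every tumour library lay below every control library of all experiments. The log2 fold changes were -1.27 ± 0.19, -1.15 ± 0.19, -0.91 ± 0.19, -1.39 ± 0.19 and -0.94 ± 0.19 with LLC, KPCML1, KPC, C26 and KPP, with adjusted p from 3.8e-04 to 0.0035. The call held with each library left out for LLC, C26 and KPP. It was lost in 2 of 4 cases for KPCML1 (highest adjusted p 0.057) and in 1 of 4 for KPC (0.052).

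Sdhd (chr9:50596357-50603812, minus strand), the small membrane anchor of complex II, had 376 and 327 CPM in LLC controls and 142 and 142 CPM with tumour (-1.31 ± 0.20, adjusted p = 0.0012). It went from 285 and 291 to 149 and 140 CPM with C26 (-0.996 ± 0.20) and from 230 and 331 to 185 and 172 CPM with KPP (-0.65 ± 0.20). In both experiments the groups did not overlap. Matrigel controls had 226 and 332 CPM, against 150 and 154 CPM with KPCML1 (-0.87 ± 0.20) and 165 and 177 CPM with KPC (-0.71 ± 0.20). The first Matrigel control was the lower one for most of the described genes, and without the second control the Sdhd effect was -0.59 with KPCML1 and -0.44 with KPC (adjusted p = 0.22 and 0.19). The calls were also lost without either tumour library of these groups (adjusted p = 0.084 and 0.15 with KPCML1, 0.093 and 0.051 with KPC).

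Ndufs1 (chr1:63143596-63176833, minus strand), the largest subunit of complex I, carries iron-sulphur clusters. It was lowest with C26, at 225 and 172 CPM against 533 and 479 CPM in controls (-1.35 ± 0.21, adjusted p = 8.1e-04), and with KPP, at 214 and 196 CPM against 411 and 562 CPM (-1.25 ± 0.21, adjusted p = 5.7e-04). It had 647 and 523 CPM in LLC controls and 308 and 287 CPM with tumour (-0.98 ± 0.21). Matrigel controls had 437 and 524 CPM, KPCML1 274 and 254 CPM (-0.86 ± 0.21) and KPC 269 and 347 CPM (-0.64 ± 0.21). All 10 tumour libraries lay below all 8 control libraries. The C26 and KPP calls held with each of their libraries left out. The LLC, KPCML1 and KPC calls did not, where the effect ran from -1.14 to -0.83, -1.01 to -0.75 and -0.89 to -0.41.

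**Figure D2:**
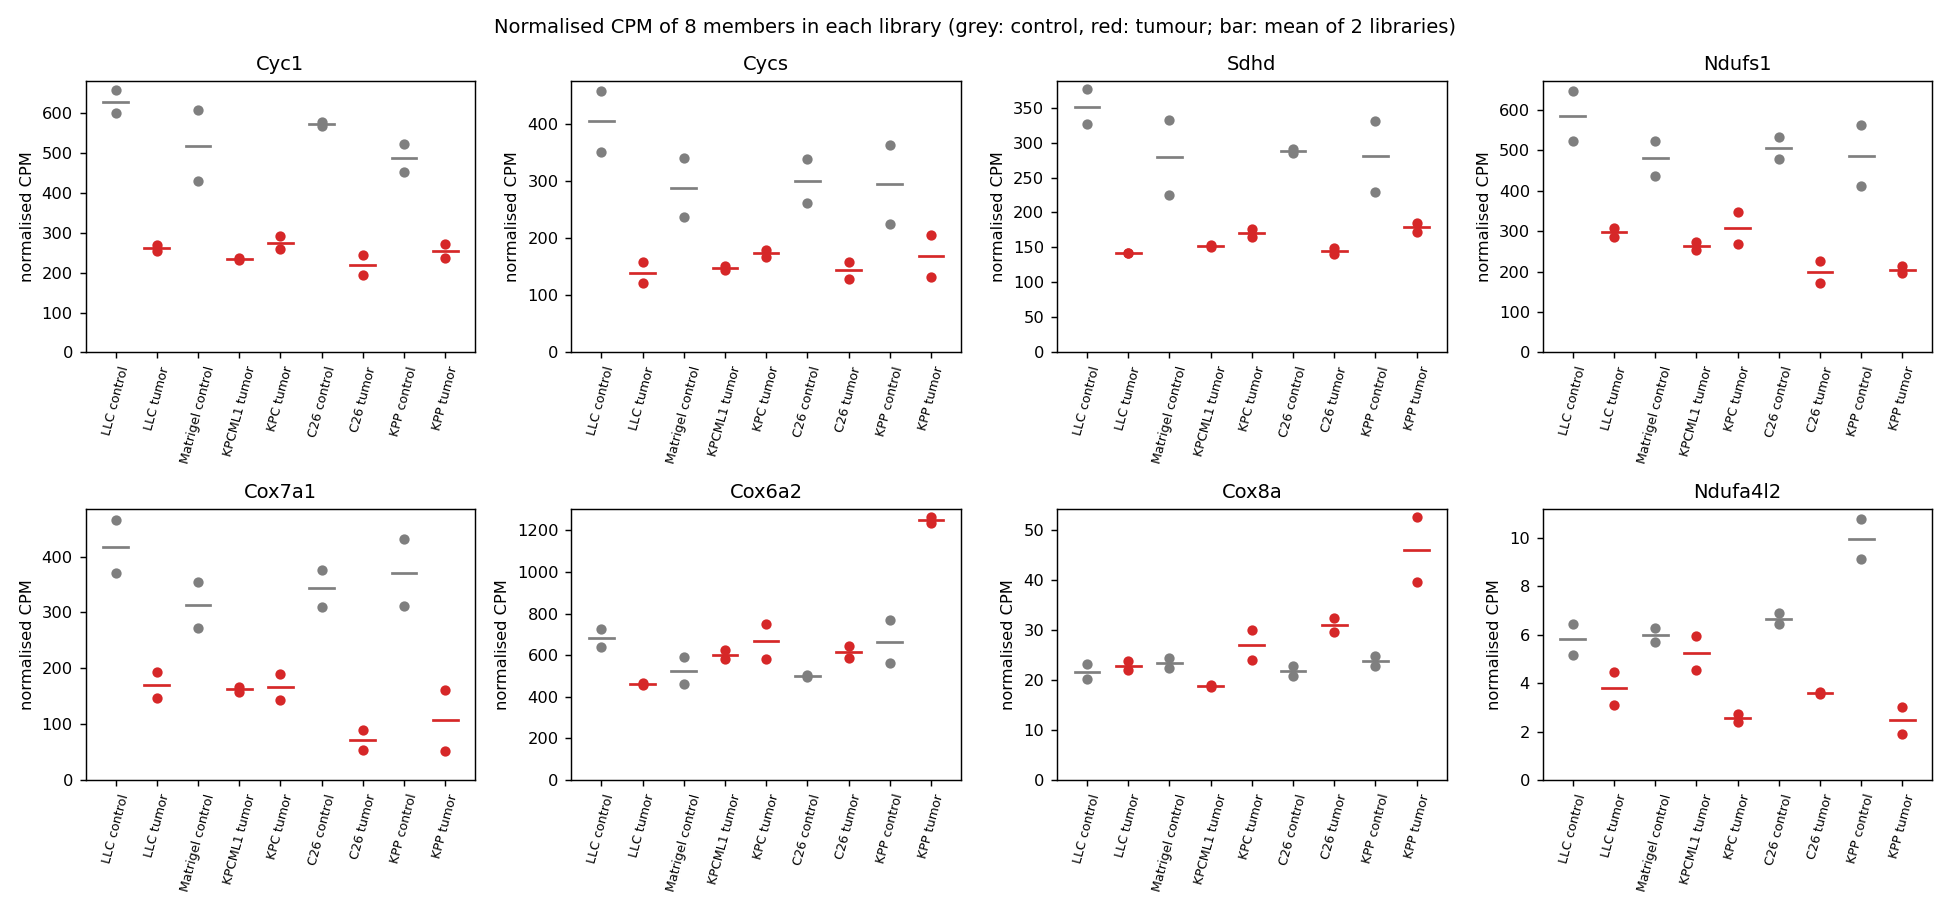
Normalised CPM (y axis, from 0) of 8 genes in each of the 18 libraries, by group (x axis); grey points are controls, red points tumour libraries and bars the mean of 2. Cyc1 and Ndufs1 are lower in every tumour library than in every control, Cox6a2 and Cox8a are highest in the KPP tumour libraries (1264 and 1235 CPM, 39.6 and 52.5 CPM), and Ndufa4l2 is lowest in the KPP tumour libraries and the KPC tumour libraries.

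The 5 genes that rose with KPP were Cox6a2, Cox8a, Ndufa7, Atp5g2 and Cox7a2l. Cox6a2 (chr7:128205435-128206387, minus strand), the heart and skeletal muscle form of complex IV subunit 6A, went from 562 and 769 CPM in KPP controls to 1264 and 1235 CPM (0.91 ± 0.19, adjusted p = 0.0026). It went from 724 and 638 to 459 and 466 CPM with LLC, which did not pass (-0.56 ± 0.19, adjusted p = 0.069). With C26 the values were 495 and 504 CPM in controls and 587 and 646 CPM in tumours (0.30 ± 0.19, adjusted p = 0.28). The 2 KPP tumour libraries were the highest of all 18, and the LLC tumour libraries were at the level of the lowest control. The difference between the LLC and KPP effects passed (-1.47 ± 0.27, adjusted p = 0.010).

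Cox8a, the ubiquitous form of subunit 8, went from 22.7 and 24.8 to 39.6 and 52.5 CPM with KPP (0.96 ± 0.17, adjusted p = 8.2e-04), and both this call and that of Cox6a2 held with each KPP library left out. It went from 20.9 and 22.8 to 29.6 and 32.5 CPM with C26 (0.51 ± 0.17, adjusted p = 0.045), a call that was lost with each C26 library left out (adjusted p 0.079 to 0.259). Ndufa7 went from 109 and 159 to 295 and 221 CPM with KPP (0.95 ± 0.22, adjusted p = 0.0052). Cox7a2l, which takes part in joining complexes III and IV into supercomplexes, went from 121 and 157 to 247 and 223 CPM (0.76 ± 0.18, adjusted p = 0.0052). For these genes both KPP tumour libraries lay above both KPP controls. The calls of Ndufa7, Cox7a2l and Atp5g2 did not hold with every KPP library left out.

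The LLC and KPP effects, whose experiments share no library, differed for 14 of the 94 genes, where 8.29% of all genes passed (3.94% lower and 4.34% higher). For 13 the LLC effect was lower: Ndufa6, Ndufa7, Ndufb10, Uqcr10, Cox6a2, Cox7a2, Cox8a, Atp5d, Atp5f1, Atp5g1, Atp5g2, Atp5l and Cox7a2l, with differences from -1.47 to -0.88. For Ndufa4l2 it was higher. Of the 13, Atp5g1, another c-subunit gene, shows the pattern: it went from 907 and 813 to 407 and 357 CPM with LLC and from 604 and 802 to 756 and 639 CPM with KPP, a difference of -1.16 ± 0.31 (adjusted p = 0.036). The count was 0 to 3 on leaving out the first KPP control, the first KPP tumour library or any LLC library, and 29 or 35 without the second KPP tumour library or the second KPP control. No gene passed for LLC minus C26, LLC minus KPC or C26 minus KPP, where 0.466%, 1.84% (0.827% lower, 1.01% higher) and 1.08% of all genes did. At an unadjusted p under 0.05 they numbered 6, 13 and 26, and DESeq2 called 0, 2 and 8.

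Ndufa4l2 (chr10:127514967-127517154, plus strand), a paralogue of Ndufa4 known to respond to low oxygen, was a minor transcript at 0.202 to 1.30% of the summed TPM of the pair. It had 10.8 and 9.14 CPM in KPP controls and 3.01 and 1.91 CPM with tumour (-2.02 ± 0.27, adjusted p = 1.4e-04). It also fell with C26, from 6.88 and 6.44 to 3.56 and 3.63 CPM (-0.89, adjusted p = 0.025). That call was lost with each C26 library left out, and the authors' deposited DESeq2 table for C26 had an adjusted p of 0.059. With LLC it went from 6.46 and 5.15 to 3.10 and 4.46 CPM, which did not pass. Matrigel controls had 5.71 and 6.28 CPM, KPC 2.74 and 2.42 CPM (-1.21 ± 0.26, adjusted p = 0.0044) and KPCML1 4.56 and 5.93 CPM (-0.20 ± 0.25, adjusted p = 0.70). KPC tumour libraries lay below both others in this experiment, whereas KPCML1 overlapped the controls. Compared directly, KPC was below KPCML1 (-1.02 ± 0.26, adjusted p = 0.037), the 1 call of 94 genes in that comparison, where 5.99% of all genes passed (3.05% lower). This call was lost with length-scaled counts, in a fit of that experiment alone and without either KPC tumour library, either KPCML1 tumour library, either Matrigel control, either LLC control or either C26 control. Of 5 endothelial markers 4 also fell with KPP and 0 with KPC, and their part in the Ndufa4l2 values was not tested.

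Several complex IV subunits exist as a form found in many tissues and a form of heart and skeletal muscle. Cox7a1, the muscle form of subunit 7A, made up 82.9 to 85.4% of the summed TPM of Cox7a1 and Cox7a2 in the 8 controls. Its share was 66.2 and 56.5% in the C26 tumour libraries and 65.6 and 43.7% in the KPP tumour libraries. It was 81.0 and 78.5% with LLC, 81.6 and 80.1% with KPCML1 and 73.6 and 81.3% with KPC. All 10 tumour libraries therefore lay below the lowest control, by the widest margin with C26 and KPP.

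In counts, Cox7a1 (chr7:30184144-30186078, plus strand) went from 310 and 376 to 89.5 and 53.7 CPM with C26 (-2.26 ± 0.42, adjusted p = 0.0023) and from 312 and 431 to 162 and 51.5 CPM with KPP (-1.80 ± 0.41, adjusted p = 0.0041). Both calls held with each library of the experiment left out, though the KPP value ran from -2.85 to -1.13. With LLC it went from 465 and 370 to 194 and 147 CPM (-1.29 ± 0.40, adjusted p = 0.048), a call lost with each LLC library left out. KPCML1 (-0.95 ± 0.40) and KPC (-0.91 ± 0.40) did not pass. Cox7a2 fell with LLC, KPCML1 and C26 (-0.87, -0.73 and -0.61) and was at 131 and 186 CPM in KPP controls and 206 and 161 CPM in KPP tumours (0.21 ± 0.21).

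The other muscle forms hold nearly all of their pair, so that their share moves little even when the minor form changes by much. Cox6a2 held 95.0 to 96.9% of the summed TPM with Cox6a1 in controls and 98.2 and 98.6% in the KPP tumour libraries. Cox8b held 96.7 to 97.7% of the sum with Cox8a in controls, 95.6 and 93.7% in the C26 tumour libraries and 97.0 and 93.6% in the KPP tumour libraries. In counts, Cox8b did not pass in any comparison (-0.53 ± 0.26 with LLC, -0.60 ± 0.26 with C26 and 0.24 ± 0.26 with KPP), beside 0.08, 0.51 and 0.96 for Cox8a. Cox4i2, the form known from lung, made up at most 0.451% of the sum with Cox4i1 in any library, and Cox6b2, a testis form, at most 0.286% of the sum with Cox6b1. Cox7a1 and Cox6a2, both muscle forms on chromosome 7, thus moved in opposite directions with KPP.

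**Figure D3:**
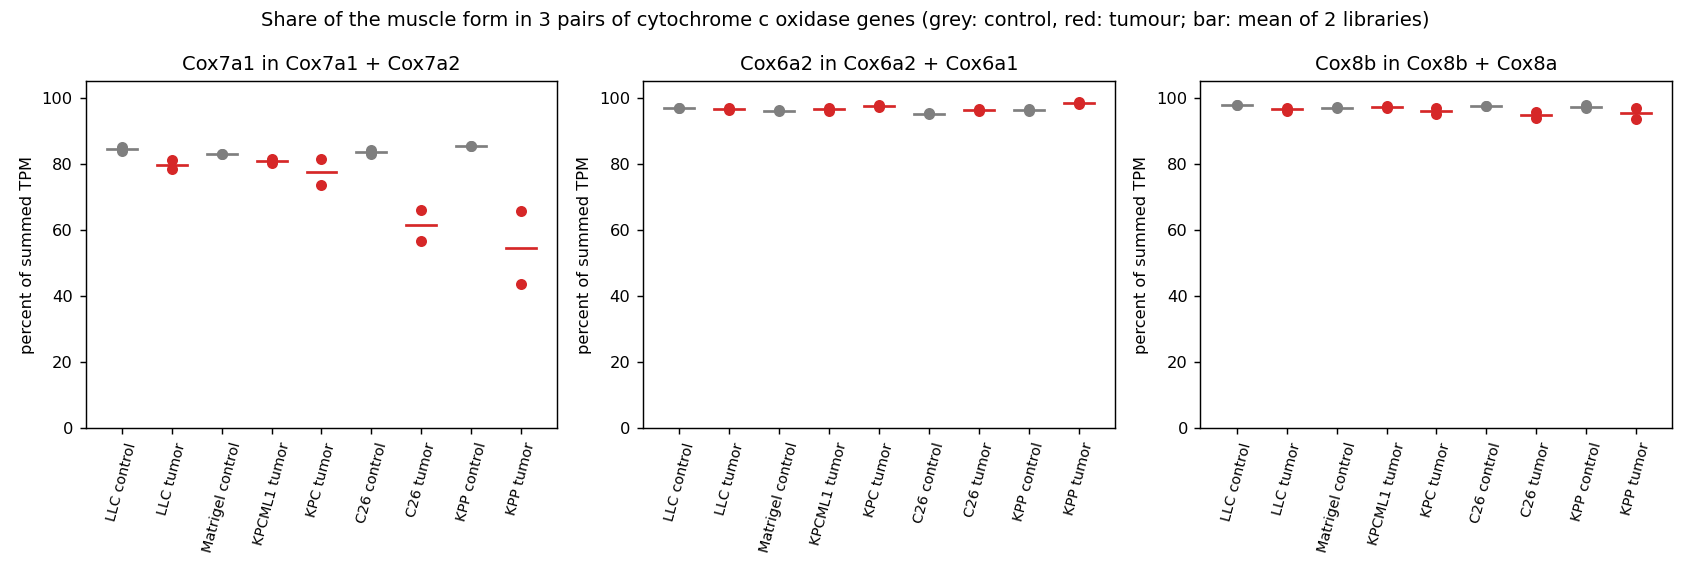
Share (y axis, percent of the summed TPM) of the muscle form in 3 pairs of complex IV genes, in each library by group (x axis); grey points are controls, red points tumour libraries and bars the mean of 2. Cox7a1 drops to 66.2 and 56.5% with C26 and to 65.6 and 43.7% with KPP. Cox6a2 and Cox8b lie between 93.6 and 98.6% in all 18 libraries, near the top of the scale, where a change of the minor form moves the share little.

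The 13 subunits encoded in mitochondrial DNA were set beside the nuclear ones. With C26 10 of 13 fell, with KPCML1 4, and with LLC, KPC and KPP 0, although at an unadjusted p under 0.05 they numbered 6, 0 and 9 in the last 3. Of all genes tested, 9.8% fell with C26, 4.38% with KPCML1, 6.24% with LLC, 13.7% with KPC and 19.3% with KPP. Their medians were -1.26 with C26, -1.08 with KPCML1, -0.85 with KPP, -0.82 with LLC and -0.31 with KPC. With KPP, KPCML1 and C26 these medians lay below those of the nuclear genes (-0.14, -0.44 and -0.78), and with KPC and LLC near them. The difference was not tested. All 13 were below 0 in each comparison.

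Regulators of these genes were read from a list of 16. Esrra, which encodes ERR alpha, fell in all 5 comparisons, by 0.87 to 1.34 on the log2 scale, and Perm1, a muscle regulator induced by PGC-1 and ERR, fell in all 5 by 1.77 to 2.31. Perm1 had 319 and 306 CPM in LLC controls and 52.9 and 73.2 CPM with tumour, and 263 and 193 CPM in C26 controls and 60.5 and 32.7 CPM with tumour. Every tumour library lay below every control in both genes. Nrf1, whose product binds many promoters of respiratory genes, moved the other way. It rose with KPCML1, KPC, C26 and KPP (0.58, 0.91, 0.76 and 0.81) and did not pass with LLC (0.43 ± 0.15, adjusted p = 0.076). Its 10 tumour libraries had 13.8 to 21.6 CPM, each above all 8 controls. Yy1, another factor of these promoters, rose with KPC, C26 and KPP.

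Ppargc1a, which encodes PGC-1 alpha, passed only with KPP (1.93 ± 0.71, adjusted p = 0.046), and that value rested on 1 library: KPP controls had 33.3 and 33.9 CPM and the tumour libraries 19.4 and 236 CPM. Without the second tumour library it was -0.72 (adjusted p = 0.19), and without either control it no longer passed (adjusted p = 0.17 and 0.13). The library with 236 CPM was the one with the lower Cox7a1 level and share. Ppargc1b fell with KPC and KPP (-1.49 and -1.45). Gabpa, a subunit of GABP, rose with KPC (0.51) and did not pass elsewhere.

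Some of the described genes start beside another gene on the opposite strand, so that both lie head to head around a short shared stretch. Of the 94 tested genes, 31 had a protein-coding neighbour of this kind, starting within 1000 bases upstream or overlapping by less than 500 bases, which is 33.0% against 13.1% of 13859 protein-coding genes tested. Of the neighbours, 29 were tested. Their median log2 fold changes were -0.00 with LLC, 0.05 with KPCML1, 0.00 with KPC, 0.14 with C26 and 0.09 with KPP, beside -0.85, -0.38, -0.32, -0.70 and -0.11 for the described genes they face. Of the 29, 1, 0, 1, 2 and 3 fell in these comparisons, where 6.24, 4.38, 13.7, 9.8 and 19.3% of all genes fell, and 2, 3, 4, 4 and 8 rose, where 7.39, 4.15, 15.3, 11.5 and 17.4% rose.

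In 3 pairs, picked out after the values were seen, the gene and its neighbour moved in opposite directions. Ndufaf7 fell in all 5 comparisons and Cebpz, a factor of ribosome formation whose start lies 70 bases away, rose in all 5 (0.68, 0.78, 0.91, 0.95 and 1.05 with LLC, KPCML1, KPC, C26 and KPP). Ndufaf7 (chr17:78937136-78948052, plus strand) had 16.9 to 25.1 CPM in the 8 controls and 10.8 to 13.6 CPM in the 10 tumour libraries, and Cebpz 24.7 to 37.5 CPM in controls and 43.2 to 66.9 CPM in tumours. Neither gene overlapped between controls and tumours across the series. Ndufs1 fell in all 5 and Eef1b2, a translation elongation factor subunit whose gene model overlaps it by 8 bases, rose in 4 (0.81, 0.67, 0.84 and 0.98 with KPCML1, KPC, C26 and KPP) and was at 0.12 ± 0.21 with LLC. Uqcrh, known as the hinge subunit of complex III, fell with LLC (-1.02), and Lrrc41, 198 bases away, rose there (0.79) and in the other 4 comparisons (0.61, 0.91, 0.78 and 0.78).

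Sdhd and Timm8b, an import chaperone of the mitochondrial intermembrane space, lie 98 bases apart. Timm8b went from 64.8 and 91.2 to 151 and 124 CPM with KPP (0.82 ± 0.22, adjusted p = 0.011), where Sdhd fell, and did not pass in the other comparisons. Ndufa7 and the ribosomal protein gene Rps28, 10 bases apart, both rose with KPP, where Rps28 went from 99.7 and 132 to 403 and 468 CPM (1.91 ± 0.21, adjusted p = 6.0e-05). Whether the counting used strand is not given in the sources used here, so reads within an overlap of 2 genes could not be told apart. Ndufaf7, Uqcrh, Sdhd and Ndufa7 do not overlap these neighbours.

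**Figure D4:**
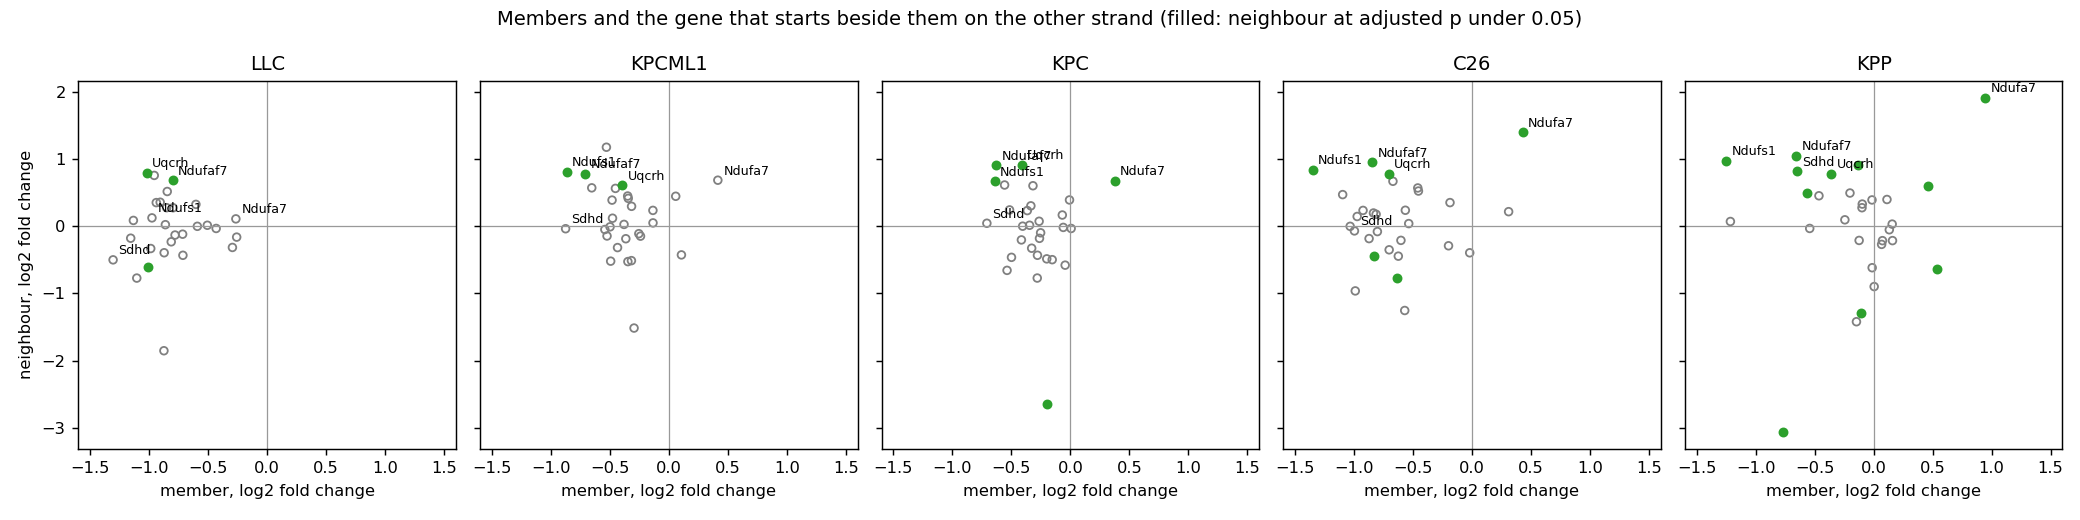
Log2 fold change of 29 neighbours (y axis) against that of the described gene they face (x axis), 1 panel per comparison; filled points are neighbours that passed at an adjusted p under 0.05. Most points lie left of 0 with LLC and C26 while the neighbours spread around 0, and Ndufaf7, Ndufs1 and Uqcrh lie in the upper left, with the neighbour above 0, in all 5 panels.

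The stretches between 3 of these pairs are shown because they are the only sequence that separates a gene that fell from a neighbour that did not. They come from RefSeq (build GRCm38.p6), are written 5′ to 3′ on the strand of the described gene and hold no exon of either gene. Capitals mark matches to CCGGAAG, the core bound by the ETS factor GABP, on either strand. The intervals are chr17:78937067-78937135 (plus strand) for Ndufaf7 and Cebpz, chr9:50603813-50603909 (minus strand) for Sdhd and Timm8b, and chr4:116075072-116075268 (minus strand) for Uqcrh and Lrrc41.
Ndufaf7: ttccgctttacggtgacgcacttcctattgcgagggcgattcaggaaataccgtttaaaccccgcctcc
Sdhd: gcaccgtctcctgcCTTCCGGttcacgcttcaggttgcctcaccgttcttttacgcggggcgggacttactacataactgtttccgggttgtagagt
Uqcrh: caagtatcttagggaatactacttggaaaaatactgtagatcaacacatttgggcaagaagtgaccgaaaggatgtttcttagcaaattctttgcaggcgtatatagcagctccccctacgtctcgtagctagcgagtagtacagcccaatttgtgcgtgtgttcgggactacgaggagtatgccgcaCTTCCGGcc
The Sdhd stretch holds 1 match next to the Timm8b side, and the Uqcrh stretch holds 1 match next to the Uqcrh start. The wider promoter window of Sdhd, of the kind described below, also held NRF1 and ERR motif matches, outside this stretch. None of the 6 motifs searched is in the Ndufaf7 stretch, which says only that these letters are not in it.

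Promoter windows of 300 bases, 250 before and 50 after the start, were found in RefSeq for 75 of the 95 names (80 windows) and searched on both strands. The palindromic NRF1 motif was in 25% of these windows and in 4.6% of all 32851 windows. CCGGAAG was in 22.5% against 8.86%, the YY1 motif AAGATGGCG in 10% against 1.40%, and the ERR motif AAGGTCA in 10% against 4.72%. For motifs of muscle factors, the MEF2 motif was in 2.5% (2 windows) against 3.69%, and the E-box CAGCTG in 7.5% against 16.3%. The CCGGAAG and AAGATGGCG letters can overlap in AAG. Base composition was not matched between the sets, and a match is not a bound site.

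The size of the fall depended on the scale. Summed in TPM with mitochondrially encoded transcripts left out, the described genes stood at 69.5% of control with LLC, 78.0% with KPCML1, 75.9% with KPC, 68.8% with C26 and 80.8% with KPP. Cycs stood at 42.7 to 56.2% and complex II at 59.5 to 74.8%. In complex IV the sum was at 84.4% with KPP, the highest of the 5 complexes in that comparison. In the authors' deposited table for LLC, 80 of 92 members with an adjusted p fell, and in the authors' deposited table for C26 70 of 93, beside 11.9% and 9.99% of their genes. In the authors' deposited table for KPC 5 of 92 fell, beside 8.78% of its genes. In the authors' deposited table for KPP 7 of 92 fell, beside 9.64% of its genes, and 4 rose.

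Some single values carry further limits. Ndufb4 has a near-identical processed pseudogene, Ndufb4c, with a mean of 94.2 CPM, so its reads are uncertain. Ndufb1-ps, at 84.9 CPM, is annotated as non-coding and was not counted by the rule, although the other Ndufb genes are subunits of the membrane arm.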

How the data were processed

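Muscle RNA was selected for poly(A), made into directional libraries and sequenced in pairs, per the labels' protocols. Salmon, DESeq2, FastQC, bcl2fastq 2.20 and the mm10 build are named in the submitters' processing notes. No source used here states the version or strand setting of Salmon. The authors deposited estimated counts per transcript, TPM and effective lengths per library, per the file headers. They also deposited DESeq2 tables with a log2 fold change, a Wald score and p-values per gene. A further table that matches no label was not used.

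Estimated counts were summed per gene with the GENCODE M21 annotation (139881 transcripts matched, 944 not, holding 0.416 to 0.693% of fragments) and rounded. One model of 9 groups and 18 libraries (9 residual degrees of freedom) was fitted with edgeR 4.0.16 in R 4.3.3: TMM scaling, its filter at a minimum count of 10, the quasi-likelihood F test and Benjamini-Hochberg adjustment over all genes tested. Errors after ± are standard errors of log2 fold changes unless marked SD. CPM are TMM-normalised. Effects were compared as contrasts of the same fit. The alternatives were RLE scaling, leaving out mitochondrial and haemoglobin genes, DESeq2 1.42.0, no filter, length-scaled counts, a replicate block, fits of single experiments and leaving out each library. On data simulated for the LLC comparison (15557 genes), 97 of 100 genes changed by -2 on the log2 scale and 18 of 100 changed by -0.8 were called, and 4 of 15357 unchanged genes. Far fewer genes were changed in the simulation than the 2193 called with LLC in the data, which makes its adjusted threshold stricter. The shares recovered there do not carry over to the members, and how many of their falls were missed was not tested.

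The members and lists were chosen with earlier results of these data known, and roles of genes are background knowledge. Genes were named by rule: up to 3 of smallest p per class and comparison, the isoform pairs, those that rose, those of smallest p in the differences between effects, the 3 of highest TPM per class, those called in all 5 comparisons or not tested, complex II, Cyc1, Cycs and the regulators. Ndufb4, Ndufaf2, Uqcrb, Uqcrh, Atp5c1, Atp5d, Atp5l, Atp5o and Atp5s are named outside that rule, after their values were seen. The head-to-head neighbours, transcript forms, promoter search and the pairs picked out were chosen after values were seen. Promoters came from RefSeq.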

Additional observations from a re-analysis of the deposited data

Results flagged for a closer look

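Several genes were marked because effects of different tumours differed by a test of the difference itself, and for each the value is the LLC effect minus the KPP effect on the log2 scale. The complex IV genes were Cox6a2 (-1.47), Cox7a2 (-1.08), Cox8a (-0.88) and Ndufa4l2 (1.41). The complex I genes were Ndufa6 (-1.21), Ndufa7 (-1.21) and Ndufb10 (-1.18), and the complex III gene was Uqcr10 (-1.03). The ATP synthase genes were Atp5d (-0.98), Atp5f1 (-1.09), Atp5g1 (-1.16), Atp5g2 (-1.23) and Atp5l (-1.24), and Cox7a2l, outside the complexes, had -1.01. In the joint test of all 5 effects by edgeR, Ndufa4l2 (adjusted p = 0.0261), Cox8a (0.0296) and Cox6a2 (0.0354) passed.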

How the results depend on the processing

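Counts are of the 94 genes past the threshold, either direction. Counts moved by over 1.5 times as follows, and the cause was not tested. For KPCML1 (11 genes) they were 22 with DESeq2, 20 with no filter, 7 with length-scaled counts and 3 when only that experiment was fitted. For KPC (13) length-scaled counts gave 5, and for KPP (24) a fit of that experiment alone gave 8. For LLC minus KPP (14) they were 37 with DESeq2, 27 with no filter, 6 with length-scaled counts and 5 in a fit of only those experiments. For LLC minus C26 (0) no filter gave 1, for LLC minus KPC (0) DESeq2 gave 2, and for C26 minus KPP (0) DESeq2 gave 8 and no filter 2. For KPC against KPCML1 (1) DESeq2 gave 2, and length-scaled counts and the single experiment gave 0. In the joint test (3) DESeq2 gave 25 and no filter 13. The joint test was not run in single experiments.

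Replicate numbers do not pair the libraries: the deviations of same-numbered libraries correlated at 0.01 (LLC), 0.09 (KPCML1), -0.05 (KPC), -0.08 (C26) and -0.17 (KPP). A replicate block gave 40 genes with LLC (65 without it), 2 with KPCML1, 4 with KPC, 30 with C26 (54), 1 for LLC minus KPP, 0 for KPC against KPCML1 and 0 in the joint test. With the KPP numbers crossed in the block, an alternative added after seeing the data, the last 2 counts were also 0, and 25 genes passed with KPP.

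Leaving out each of the 18 libraries in turn gave 5 to 71 genes with LLC, 0 to 17 with KPCML1, 1 to 21 with KPC, 11 to 69 with C26, 13 to 24 with KPP, 0 to 35 for LLC minus KPP, 0 to 1 for KPC against KPCML1, 0 to 4 in the joint test and 0 to 0 for the other differences. Ppargc1a reversed with KPP without the second tumour library (-0.72, adjusted p = 0.19), and over the KPP libraries left out it ran from -0.72 to 2.82. Of 180 calls on single named genes, 170 held with RLE scaling, 175 without mitochondrial and haemoglobin genes, 179 with DESeq2, 166 with no filter, 134 with length-scaled counts and 103 with the replicate block, and 128 of 176 held in fits of single experiments; no other call reversed. With each library of the comparison left out in turn, 4 of 41 named members kept their call every time with LLC, 0 of 11 with KPCML1, 1 of 13 with KPC, 10 of 39 with C26 and 7 of 24 with KPP. With 2 libraries per group, small falls could be missed.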
